A study of Mus musculus with 2 samples.

Results

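Heat shock genes encode chaperones, proteins that help other proteins to fold, keep unfolded proteins from clumping and carry damaged ones to degradation. Heat, oxidants and other stress that unfolds proteins releases heat shock factor 1 (HSF1), which binds repeats of the short unit nGAAn in the promoters of these genes and switches them on within minutes. The cytosolic HSP70 proteins bind exposed stretches of a client protein, DNAJ proteins bring clients to HSP70 and drive its ATP cycle, and nucleotide exchange factors release the client. HSP90 completes the folding of many kinases and receptors, and a chamber of HSP60 closed by HSP10 folds proteins in mitochondria. The same genes are also induced while cells are taken out of a tissue and sorted, together with immediate early genes such as *Fos* and *Jun*.

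Here 9 heat shock genes were followed, of 31053 mouse genes in the count matrix. *Hspa1a* and *Hspa1b* encode the stress-inducible HSP70, and *Dnajb1* encodes the HSP40 partner of HSP70; these genes, which are low at rest and strongly induced, are called the inducible trio below. The cytosolic set holds *Dnaja1*, another J-domain partner of HSP70, *Hsph1*, an HSP110 nucleotide exchange factor, *Hsp90aa1*, the inducible HSP90, and *Hspa8*, the constitutive HSP70. The mitochondrial pair is *Hspd1*, which encodes HSP60, and *Hspe1*, which encodes its lid HSP10. The members were chosen by their levels in these same cells, since earlier results of these data had shown them to differ between cells, and no threshold was set. Their levels are therefore given as a description, with no test.

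The cells were T cells sorted for the beta chain of the T cell receptor (TCR) from mouse melanomas grown from B16 cells or from B16–IL-33 cells, a B16 line engineered to overexpress secreted IL-33, and were collected 9 days after inoculation. The mice of the study are on the C57BL/6 background. IL-33 is an alarm cytokine whose receptor is encoded by *Il1rl1*. All cells were loaded together on 10x Chromium 5′ chemistry as 1 pool, with 3 libraries (gene expression, hashtag antibodies and TCR), and the 4 hashtags are named B16_1, B16_2, B16IL33_1 and B16IL33_2. No further treatment was given, and which or how many animals each tag marks, and their age, are not given in the sources used here. With 1 pool there is no replicate of either tumor, so no p-value was computed, and every interval in parentheses is an exact 95% interval that covers counting error only. For levels and ratios, the spread between cells is not in these intervals. Intervals that do not overlap therefore do not show that groups of cells differ.

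Of 14035 barcodes, 9078 passed the limits of 200 to 2500 detected genes and under 5% mitochondrial unique molecular identifiers (UMIs, the counted molecules). They held 26606999 UMIs on mouse genes, with a median of 2467 and a range of 254 to 14063 per cell. Levels are given as CPM, the UMIs of a gene summed over a group of cells, divided by all UMIs of that group and multiplied by 1000000. UMIs decided the class of a cell. CD8+ T cells had more UMIs of *Cd8a* and *Cd8b1* than of *Cd4* and *Foxp3* (1255 cells), regulatory T (Treg) cells had *Foxp3* and no Cd8 UMI (2600 cells), and conventional CD4+ T (Tconv) cells had *Cd4* and neither *Foxp3* nor Cd8 (1765 cells). The 129 myeloid cells had *Csf1r* and no *Cd3e* and were taken out first, and 3329 cells met no rule. The classes had the markers of their names, although the rules used some of them (*Cd3e* and *Csf1r* here): 5 T cell markers summed to 3897, 4048 and 3801 CPM in CD8+, Treg and Tconv cells and to 133 in myeloid cells, whereas 9 myeloid markers summed to 16831 CPM in myeloid cells and to 272 to 337 CPM in the 3 T cell classes. The 4 regulatory T cell markers, *Foxp3* among them, summed to 3225 CPM in Treg, 816 in Tconv, 474 in CD8+ and 98.6 in myeloid cells. Tconv cells lack a *Foxp3* UMI by rule, so Treg cells whose *Foxp3* was not caught may be among them. Their number was not tested, and this limits each comparison of Tconv with Treg cells. Markers of B cells, NK cells and fibroblasts (4 genes each) summed to at most 21.3, 120.2 and 1.21 CPM in any class. The 5 melanoma markers stayed between 11.9 and 18.5 CPM in the 4 classes. No class in the pool is known to lack heat shock genes, so the UMIs that free RNA adds to a cell could not be measured for the members. Doublets were not called, and 428 kept cells carried at least 2 productive beta chains.

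Positions are those of the mouse build GRCm38 (GENCODE vM21). *Hspa1a* (chr17:34969190-34972156) and *Hspa1b* (chr17:34956436-34959238) lie 9951 bases apart on the minus strand and have 1 exon each. *Hspd1* (chr1:55077835-55088243, minus strand) and *Hspe1* (chr1:55088132-55091307, plus strand) are transcribed away from each other from overlapping starts and share 1 promoter region. The others are *Dnajb1* (chr8:83608193-83612653), *Dnaja1* (chr4:40722150-40737149) and *Hspa8* (chr9:40800984-40810087) on the plus strand, and *Hsph1* (chr5:149614287-149636376) and *Hsp90aa1* (chr12:110690605-110702728) on the minus strand.

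The 150 bases before the start sites of *Hspa1a* and *Hspa1b* (RefSeq, GRCm38.p6, minus strand, chr17:34972157-34972306 and chr17:34959239-34959388) are printed 5′ to 3′ because they show how close the pair is. They differ at 1 of 150 positions, and capitals mark the match to GAANNTTC, 2 HSF1 units facing each other, which ends 96 bases before each start.
Hspa1a: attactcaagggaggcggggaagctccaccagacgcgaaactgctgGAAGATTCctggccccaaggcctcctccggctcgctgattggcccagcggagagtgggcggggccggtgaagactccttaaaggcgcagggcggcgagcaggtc
Hspa1b: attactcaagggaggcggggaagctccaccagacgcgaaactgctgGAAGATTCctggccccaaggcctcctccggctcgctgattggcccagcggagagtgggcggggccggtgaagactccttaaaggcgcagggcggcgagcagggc
The transcripts of the pair are as close. In the first 500 bases, where 5′ reads fall, 74.6% of the stretches of 50 bases in either gene are also in the other. Whether reads of these stretches were counted for the right gene, for the other or for neither was not tested. The split of reads between *Hspa1a* and *Hspa1b* is therefore uncertain, and their sum may miss some. Shares of the first 500 bases found in other transcripts, retrocopies included, were 59.6% for *Hsp90aa1*, 50% for *Dnaja1*, 35.6% for *Hspe1*, 22.2% for *Hspd1*, 16% for *Hspa8* and 0 for *Hsph1* and *Dnajb1*.

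Matches to paired HSF1 units were also found near the starts of *Hspe1*, *Hspd1*, *Hsph1* and *Dnaja1*. The longest run of matches of each gene is printed in capitals, with its neighbouring bases, on the strand of the gene (chr1:55088053-55088082 plus and minus strand, chr5:149636280-149636308 and chr4:40722333-40722362).
Hspe1: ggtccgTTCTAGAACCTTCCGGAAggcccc
Hspd1: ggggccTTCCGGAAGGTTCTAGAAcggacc
Hsph1: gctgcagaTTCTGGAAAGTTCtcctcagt
Dnaja1: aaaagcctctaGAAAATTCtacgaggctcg
The site of *Hspd1* is the site of *Hspe1* read on the other strand, an unbroken run of 18 bases. On the strand of *Hspd1* it ends 126 bases before a RefSeq start of that gene. This RefSeq start lies downstream of the GENCODE start of *Hspd1* given above, so the site is inside the GENCODE gene. The other RefSeq window of *Hspd1* held no match. The printed capitals of *Hsph1* lie after its start site, and a further match, to TTCNNGAA, ends 46 bases before a RefSeq start of this gene. The GENCODE start of *Hsph1* lies further upstream, so this match too is inside the GENCODE gene. The printed capitals of *Dnaja1* end 116 bases before a RefSeq start. That start lies downstream of the GENCODE start given above, so the site is inside the GENCODE gene. The other RefSeq windows of *Dnaja1* held no match. RefSeq windows of 300 bases (250 before and 50 after a start) were matched for 7 of the 9 members, 12 windows in all, and *Hsp90aa1* and *Hspa8* had none. Both palindromes of 2 units, GAANNTTC and TTCNNGAA, read the same on either strand and were counted together, and 7 of the 12 windows held at least 1, where 15.06% of all 32851 windows did. A run of 3 units in alternating direction (both palindromes overlapping by 1 unit, in either order, on either strand) was found in 4 of the 12 windows, which belong to *Hsph1*, *Hspd1* and *Hspe1*, and in 0.6027% of all windows. The windows of *Dnajb1* held neither, which says only that these letters are not there. The windows are not separate observations. Those of *Hsph1* overlap and hold the same matches, *Hspd1* and *Hspe1* share 1 site, and the windows of *Hspa1a* and *Hspa1b* differ at 4 of 300 positions. The counts of windows thus exceed those of distinct sites. A match is a description and not a binding site.

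Tconv cells had the most of the inducible trio among the T cell classes. The summed level was 1137 CPM (1107 to 1167) in Tconv cells, 835 CPM (809.5 to 860.2) in CD8+ cells and 773 CPM (755 to 793) in Treg cells, so the trio was 1.47-fold (1.42 to 1.52) higher in Tconv than in Treg cells. The cells left without a class had 1201 CPM (1177 to 1226). The order was not the same for each gene of the trio. *Hspa1a* read 576 CPM (555 to 598) in Tconv, 389 CPM (375 to 402) in Treg and 375 CPM (358 to 392) in CD8+ cells, and the last 2 intervals overlapped. *Hspa1b* read 187 CPM (175 to 199) in Tconv, 139 CPM (129 to 149.8) in CD8+ and 134 CPM (126 to 142) in Treg cells, again with only the first apart. *Dnajb1* read 374 CPM (357 to 391) in Tconv, 321 CPM (305 to 337) in CD8+ and 251 CPM (240.2 to 262) in Treg cells. These counting intervals did not overlap. Among the cells within the gene limit, myeloid cells had the most *Hspa1a* of the 4 classes at 730.4 CPM (666 to 799) and the least *Dnajb1* at 92.5 CPM (70.6 to 119). The order of *Hspa1a* depended on that limit, since with cells of over 2500 genes kept its ratio to Treg cells was 1.14 (1.05 to 1.23) in myeloid and 1.49 (1.42 to 1.56) in Tconv cells. *Hspa1b* read 159 CPM (129.6 to 193) in myeloid cells, overlapping the interval of Tconv cells.

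The cytosolic set was nearly level across classes. *Hspa8* read 1872 CPM (1769 to 1981) in myeloid, 1856 CPM (1826 to 1885) in Treg, 1805 CPM (1769 to 1843) in CD8+ and 1643 CPM (1608 to 1679) in Tconv cells, and only Tconv cells lay below the rest. *Hsp90aa1* ranged from 627 CPM (568 to 691) in myeloid to 692 CPM (674 to 709.9) in Treg cells, with CD8+ (648, 626 to 671) and Tconv cells (659, 637 to 682) between them and overlapping neighbours throughout. *Dnaja1* ranged from 317 CPM (276 to 364) in myeloid to 395 CPM (381 to 408) in Treg cells. *Hsph1* differed more, with 154 CPM (144 to 165) in CD8+, 133 CPM (123 to 144) in Tconv, 117 CPM (110.2 to 125) in Treg and 75.5 CPM (55.9 to 99.8) in myeloid cells, the last apart from the T cell classes.

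The mitochondrial pair had another order, with CD8+ cells at the top. *Hspe1* read 657 CPM (635 to 679.9) in CD8+ cells, above 476 CPM (425 to 532) in myeloid, 454 CPM (436 to 473) in Tconv and 404 CPM (390.4 to 418) in Treg cells. *Hspd1* read 185 CPM (173 to 197) in CD8+ cells, where Tconv (146, 135 to 157) and Treg cells (142, 134 to 150.01) overlapped and myeloid cells had 111 CPM (86.8 to 139.7). The partner subunits of 1 chamber thus stood highest in the same class.

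**Figure D1:**
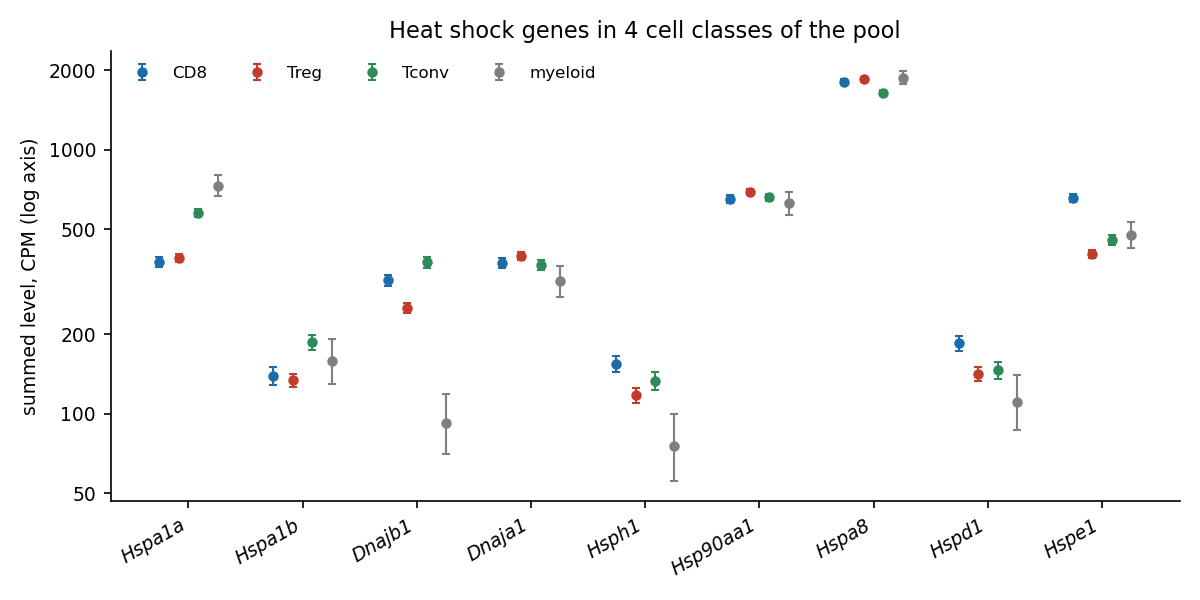
Level of each of the 9 members in CD8+, Treg, Tconv and myeloid cells (CPM, summed UMIs of the gene over all UMIs of the class, log axis), with points at the value and bars for the exact 95% counting interval. Tconv cells stand highest of the T cell classes for Hspa1a (576 CPM), CD8+ cells for Hspe1 (657 CPM), and, among cells of at most 2500 genes alone, myeloid cells lie highest for Hspa1a (730.4 CPM) and lowest for Dnajb1 (92.5 CPM).

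As ratios to Treg cells, which all of the following class comparisons share, the members differed by set. A gene was counted as higher or lower past 1.5-fold, among genes with at least 20 UMIs in both groups together. In CD8+ cells 1 of 9 members, *Hspe1*, was past 1.5-fold higher at 1.63-fold (1.55 to 1.71) and none was lower, against 8.87% of all genes higher and 24.2% lower, so the count of members was close to the background. *Hspd1* was 1.31-fold (1.20 to 1.43) and the mitochondrial pair 1.54-fold (1.48 to 1.61) of the Treg level. The trio was 1.08-fold (1.04 to 1.12), made up of *Dnajb1* at 1.28-fold (1.20 to 1.36), *Hspa1a* at 0.964-fold (0.910 to 1.02) and *Hspa1b* at 1.04-fold (0.944 to 1.14). That small difference turned to 0.890 (0.861 to 0.921) when cells with over 2500 genes were kept. The median over the 9 members was 1.04, beside 0.863 over all genes.

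In Tconv against Treg cells no member was past 1.5-fold in either direction, against 7.83% of all genes higher and 14.6% lower. The 3 genes of the trio stood just inside that limit, with *Hspa1a* at 1.48-fold (1.41 to 1.56), *Hspa1b* at 1.39-fold (1.28 to 1.52) and *Dnajb1* at 1.49-fold (1.40 to 1.59). After thinning to 1500 UMIs *Dnajb1* lay past it, at 1.60 (1.46 to 1.76). The cytosolic set lay slightly below 1 at 0.916-fold (0.897 to 0.935), with *Hspa8* at 0.885-fold (0.862 to 0.909), and the mitochondrial pair at 1.10-fold (1.05 to 1.15). CD8+ cells had 0.734-fold (0.705 to 0.764) of the Tconv level of the trio and 0.650-fold (0.613 to 0.690) of its *Hspa1a*. In myeloid against Treg cells 1 member was higher past 1.5-fold, *Hspa1a* at 1.88-fold (1.70 to 2.07) (no longer past the limit, at 1.14, with cells of over 2500 genes kept), and 2 were lower, *Dnajb1* at 0.369-fold (0.280 to 0.476) and *Hsph1* at 0.643-fold (0.472 to 0.857), where 17.2% and 46.7% of all genes were. *Hsph1* was 0.683 (0.501 to 0.911) among cells with at least 1500 UMIs, and *Hspa1b*, at 1.19-fold (0.959 to 1.45) under the gene limit, was 0.706 (0.591 to 0.839) without it. The summed trio was 1.27-fold (1.17 to 1.38) and became 0.809 (0.756 to 0.865) with cells of over 2500 genes kept.

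Other chaperone lists and stress lists are given as counts past 1.5-fold between classes. Of all genes, 8.87% were higher and 24.2% lower in CD8+ than in Treg cells. The shares were 7.83% and 14.6% in Tconv and 17.2% and 46.7% in myeloid cells. A count close to these shares is no trait of its list. Of 29 other cytosolic chaperones and co-chaperones, 3 were higher and 5 lower past 1.5-fold in CD8+ than in Treg cells, among them *Hspb1*, a small heat shock protein that holds unfolded clients, at 2.38-fold (1.93 to 2.95), and *Hspa13*, an HSP70 of the microsomes, at 0.370-fold (0.260 to 0.518). Tconv cells had 2 of the 29 higher and 4 lower, and myeloid cells 2 higher and 10 lower. None of the 7 subunits of the cytosolic chaperonin CCT was past 1.5-fold in any of the 3 class comparisons. Of 16 immediate early genes known to be raised by tissue dissociation, 4 were higher and none lower in Tconv than in Treg cells, where the trio was also higher: *Btg2* (1.80-fold, 1.69 to 1.92), *Ier2* (1.74-fold, 1.63 to 1.86), *Fosb* (1.69-fold, 1.54 to 1.86) and *Socs3* (1.62-fold, 1.47 to 1.78). In CD8+ against Treg cells 2 of the 16 were higher and 3 lower. In myeloid cells 9 of the 16 were higher and 1 lower than in Treg cells, with *Fos* at 3.23-fold (3.03 to 3.44), and 7 of 18 endoplasmic reticulum chaperones and stress genes were higher and 1 lower, with *Sdf2l1* at 2.49-fold (1.93 to 3.19) and *Xbp1* at 2.25-fold (1.78 to 2.82). The same 18 genes had 3 lower and none higher in CD8+ cells and none in either direction in Tconv cells. Of 10 other mitochondrial chaperones and proteases, 1 was higher and 1 lower in CD8+, none was past the limit in Tconv, and 2 were higher and 2 lower in myeloid cells, all against Treg cells. Of 8 heat shock factors and regulators, CD8+ cells had 1 higher and 2 lower, Tconv cells 1 lower and myeloid cells 1 higher and 5 lower; *Hsf1* itself was at 0.497-fold (0.180 to 1.11) in myeloid, 1.20-fold (0.930 to 1.54) in CD8+ and 1.29-fold (1.01 to 1.65) in Tconv cells.

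The level of the trio differed widely between cells of 1 class. To set cells of unequal depth side by side, each cell was thinned to 1500 UMIs, which left out 108 CD8+, 451 Treg and 322 Tconv cells below that depth. At least 1 trio UMI was then found in 47.4% (44.5 to 50.4) of 1147 CD8+, 41.7% (39.6 to 43.8) of 2149 Treg and 53.3% (50.7 to 55.9) of 1443 Tconv cells, beside 65.1%, 55.0% and 63.7% of all cells before thinning. Equal levels in every cell of a class would leave 24.8%, 29.5% and 16% of cells without a trio UMI by Poisson counting, and the data had 52.6%, 58.3% and 46.7%. Most cells thus showed none of the trio or a few UMIs, and a small share carried most of it. The highest 10% of cells held 54.8% of the trio UMIs in CD8+, 59.2% in Treg and 55.3% in Tconv cells, where Poisson counting gives 26.6%, 28.4% and 24.8%, and the highest single cell reached 31, 25 and 29 trio UMIs of its 1500.

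**Figure D2:**
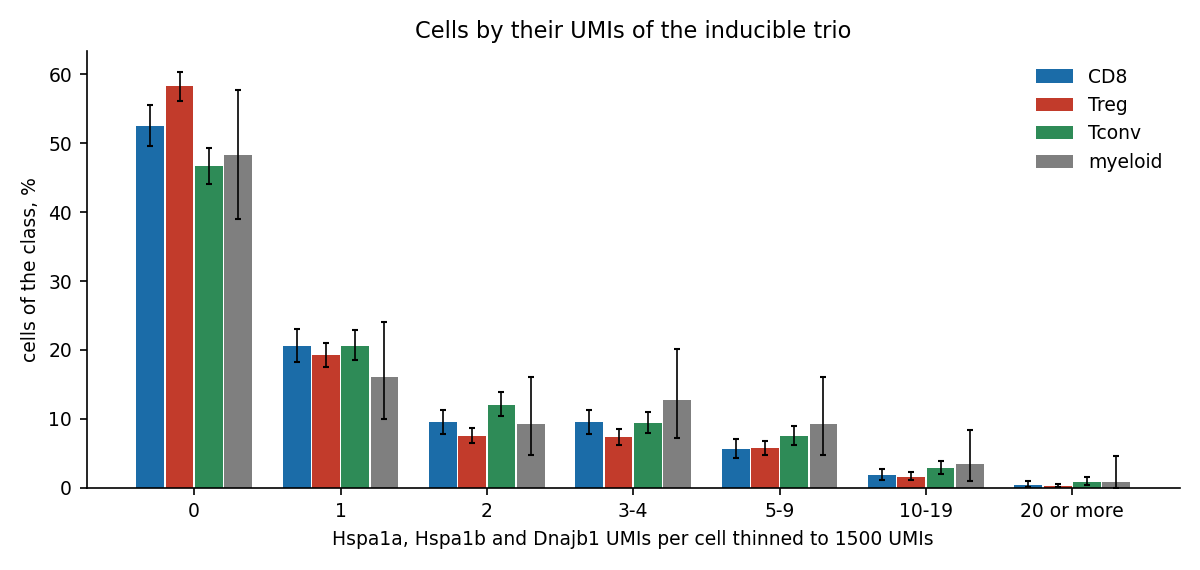
Share of cells (percent, y axis) by the number of UMIs of Hspa1a, Hspa1b and Dnajb1 together (x axis) in CD8+, Treg, Tconv and myeloid cells, after thinning every cell to 1500 UMIs, with bars for the share and whiskers for the exact 95% binomial interval. Cells with 0 UMIs are the largest bar in each class, here 52.6% of CD8+, 58.3% of Treg and 46.7% of Tconv cells, and a tail reaches 10 UMIs or more.

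The members differed in the ratio of variance to mean of their UMIs over cells. For *Hspa1a* the variance of the thinned UMIs was 3.86 times the mean in CD8+, 4.48 in Treg and 4.69 in Tconv cells, where the median gene had 1.03, 1.03 and 1.03. That placed *Hspa1a* at rank 49 of 6092 genes in CD8+, 36 of 6441 in Treg and 36 of 6250 in Tconv cells, counting genes with a mean of at least 0.02 UMIs. *Hsp90aa1* had 1.94, 3.43 and 3.11 times its mean in the same order, the widest range between classes in the cytosolic set. *Hspa8*, present at rest, had 1.80, 1.92 and 1.65 and was found in 87.8% (85.8 to 89.6) of CD8+, 88.1% (86.7 to 89.5) of Treg and 86.9% (85.1 to 88.6) of Tconv cells. *Hspd1* had the lowest values of the members, 1.47, 1.34 and 1.12, and stood at rank 295, 399 and 1013 of the same genes. This ratio depends on the mean, which was 0.279, 0.214 and 0.191 UMIs for *Hspd1* and 2.65, 2.81 and 2.47 for *Hspa8*. The values and ranks are therefore no order of evenness. The highest 10% of cells held 60.6%, 67.0% and 63.6% of *Hspd1* UMIs and 28.0%, 28.3% and 27.6% of *Hspa8* UMIs. That share depends on the mean too. Few cells had none of the 9 members, 13 CD8+, 45 Treg and 21 Tconv cells, and the median cell of each class had 3 members detected.

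As point values, members were found in the same cells more often than their shares alone give. In each T cell class all 36 pairs of members shared at least as many cells as independence gives, with a median over pairs of 1.12 times in CD8+, 1.18 in Treg and 1.21 in Tconv cells. Many of the intervals included 1, such as that of *Hspa1a* with *Hspd1* in CD8+ cells, at 1.04 times (0.799 to 1.34). Pairs of other genes were not computed, so no count of pairs here or below has a background beside it. The pair *Hspa1a* and *Hspa1b* had the highest value in each class: 89 CD8+ cells had both where 43.9 were expected, 2.03 times (1.63 to 2.49), 165 Treg cells where 64.8 were, 2.55 times (2.17 to 2.96), and 149 Tconv cells where 83.9 were, 1.78 times (1.5 to 2.08). Their shared sequence touches this pair, since how reads of the shared stretches were counted was not tested. The other pairs of the trio share no such sequence. *Hspa1a* and *Dnajb1* were together 1.39 times (1.14 to 1.67) as often in CD8+, 1.5 times (1.29 to 1.75) in Treg and 1.46 times (1.26 to 1.67) in Tconv cells, and *Hspa1b* and *Dnajb1* 1.76 times (1.41 to 2.16), 1.66 times (1.36 to 2.0) and 1.52 times (1.26 to 1.81). All 3 genes were found in 3.92% of CD8+, 3.26% of Treg and 5.75% of Tconv cells, where independence gives 1.10%, 0.691% and 1.75%.

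Outside the trio, *Hsph1* had the highest ratio with *Hspa1a*, 1.52 times (1.21 to 1.89) in CD8+, 1.73 times (1.43 to 2.07) in Treg and 1.48 times (1.21 to 1.79) in Tconv cells. With *Hspa1b*, *Hsph1* reached 1.77 times (1.38 to 2.22) in Tconv cells, close to the 1.78 times of *Hspa1a* and *Hspa1b* there. The ratio of observed to expected cells has less room to rise for genes found in more cells, such as *Hsp90aa1*. By correlation with the trio, *Hsp90aa1* (0.269, 0.31 and 0.362 in the same order) stood above *Hsph1* (0.247, 0.255 and 0.266). *Hspd1* and *Hspe1*, the pair with overlapping starts, were together 1.16 times (0.983 to 1.36) in CD8+, 1.37 times (1.18 to 1.58) in Treg and 1.18 times (0.981 to 1.40) in Tconv cells. Pairs with *Hspa8* lay near 1, since nearly every cell had it. The B16-tagged cells of the 3 T cell classes, taken alone, had 1.64 to 2.04 times for the 3 pairs of the trio, and 30 of the 36 pairs above 1. In B16-tagged Treg cells alone, 25 of the 36 pairs lay above 1, with 1.75 to 4.24 times for the trio and a median of 0.958 times within the cytosolic set.

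**Figure D3:**
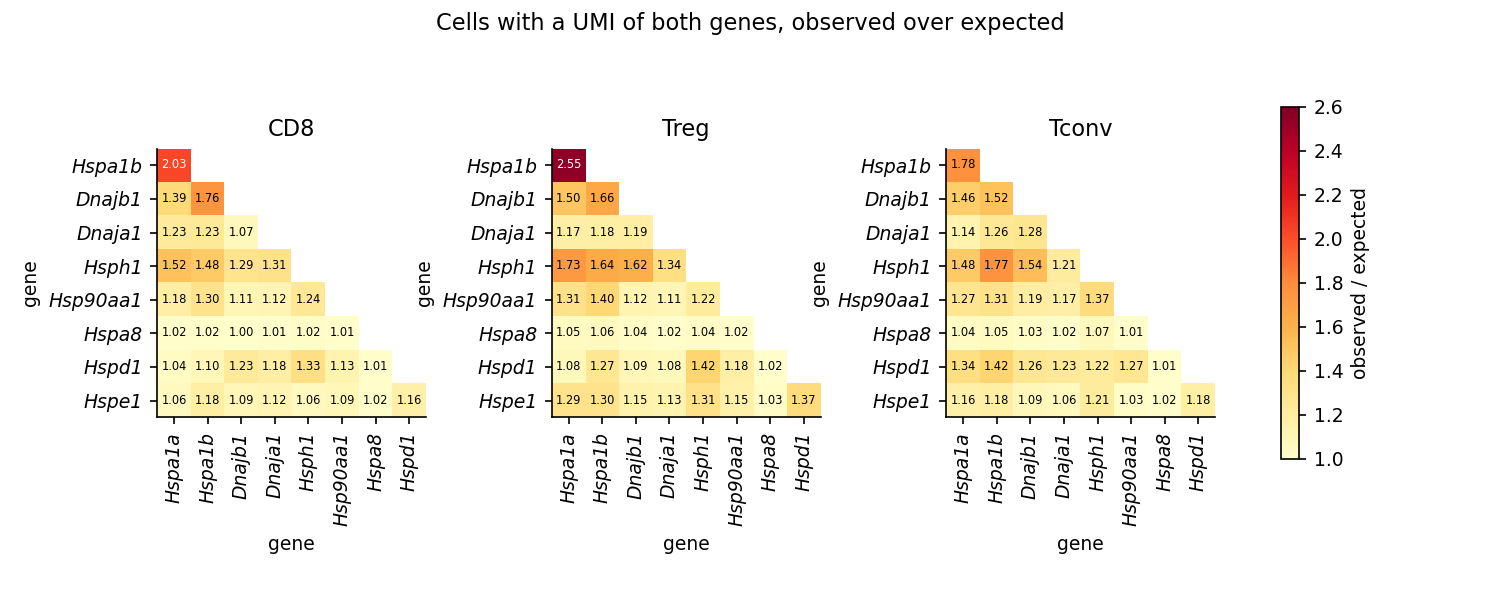
Cells with both members of a pair divided by the number independence gives, for the 36 pairs in each T cell class after thinning to 1500 UMIs, with colour and a printed value for the ratio and genes in the same order on both axes. In each class the darkest square is Hspa1a with Hspa1b, highest in Treg cells (2.55), and the pairs with Hspa8 lie near 1. In Tconv cells Hspa1b with Hsph1 (1.77) lies close to the darkest square (1.78).

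Binning cells by their trio UMIs shows the same relation as levels. In cells with 0, 1 to 2, 3 to 9 and at least 10 trio UMIs, *Hsp90aa1* read 499, 708, 1362 and 3167 (2732 to 3650.4) CPM in 1253, 575, 281 and 40 Treg cells. In CD8+ cells it went from 467 in the first to 1846 (1444 to 2325) CPM in the last bin, of 26 cells, and in Tconv cells from 415 to 3099 (2727 to 3507) CPM, of 54 cells. The last bin stood above the first by more in the CD4+ classes than in CD8+ cells. *Hsph1* went from 78.2 to 533 (365 to 753) CPM in Treg cells, from 117 to 641 (415 to 946) in CD8+ and from 71.2 to 457 (322 to 629.6) in Tconv cells. *Dnaja1* went from 335 to 1033 (792 to 1325) CPM and *Hspa8* from 1629 to 3600 (3136 to 4113) in Treg cells. The constitutive HSP70 was thus also higher where its inducible relatives were. The mitochondrial pair took part as well, with *Hspe1* at 568 and 2026 (1604 to 2525) CPM in the first and last bins of CD8+, 315 and 1317 (1042 to 1641) of Treg and 388 and 1099 (882 to 1352) of Tconv cells. *Hspd1* was weakest in Treg cells, from 131 to 217 (115 to 371) CPM.

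**Figure D4:**
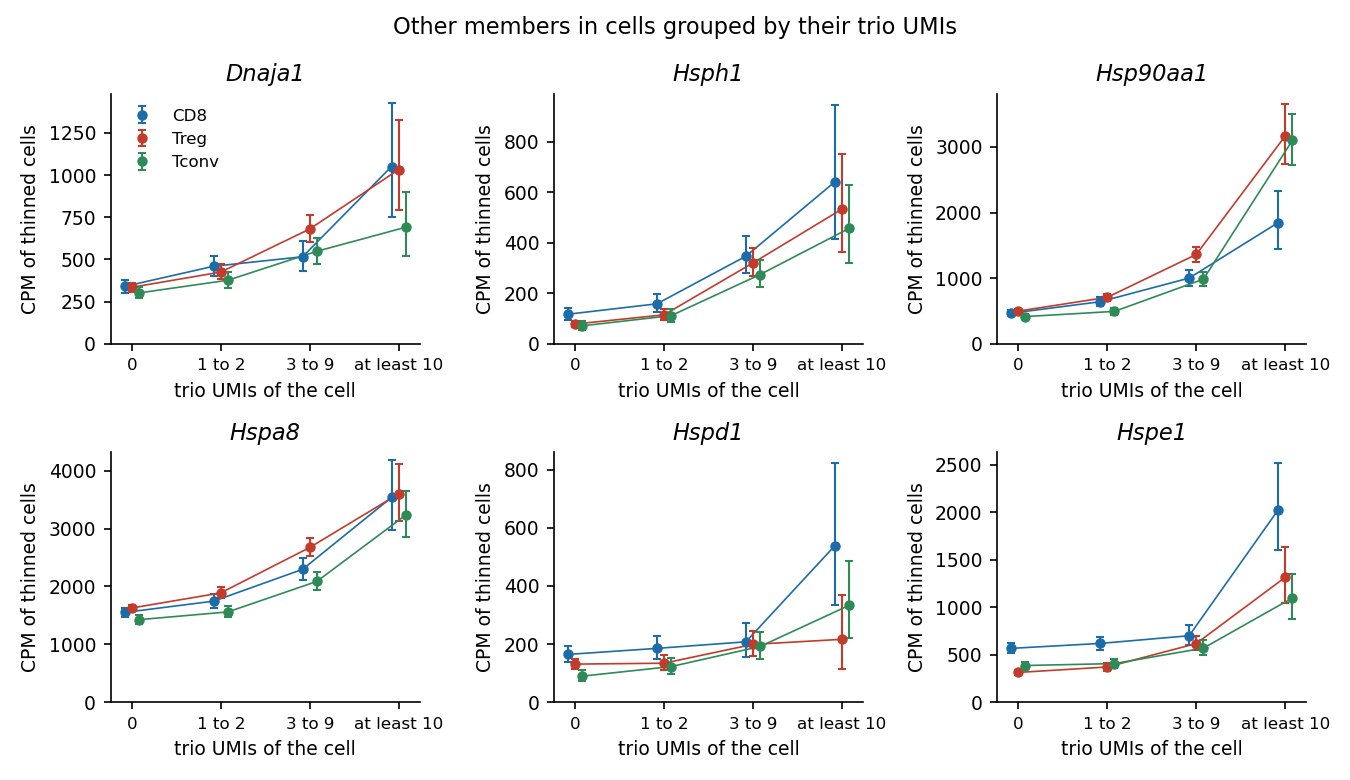
Level of the 6 members outside the trio (CPM after thinning, linear axis from 0) in cells with 0, 1 to 2, 3 to 9 and at least 10 trio UMIs, for CD8+, Treg and Tconv cells, with bars for the exact 95% counting interval. Hsp90aa1 goes from 499 to 3167 CPM in Treg cells, and each member is higher in the last bin than in the first in each class.

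Cells with at least 3 trio UMIs were then set against cells with 0. The 6 members that did not choose the cells were all past 1.5-fold higher in each T cell class, where 12.6% of all genes were in CD8+, 9.25% in Treg and 8.36% in Tconv cells. Of the immediate early genes, 11 of 15 were higher in CD8+, 9 of 16 in Treg and 14 of 15 in Tconv cells, and none was lower, where 13.8%, 12.6% and 12.9% of all genes were. *Fos* was 2.75-fold (2.32 to 3.26) in CD8+, 2.12-fold (1.90 to 2.37) in Treg and 2.10-fold (1.86 to 2.37) in Tconv cells, and *Egr1* was 2.62-fold (1.72 to 3.99), 1.84-fold (1.38 to 2.44) and 2.76-fold (2.06 to 3.70). Whether the handling of the tissue raised these genes was not tested.

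Of the other cytosolic chaperones 4 of 23 (17.4%) were higher in CD8+, 4 of 27 (14.8%) in Treg and 6 of 26 (23.1%) in Tconv cells, with 1 lower in Tconv cells, against the 12.6%, 9.25% and 8.36% of all genes given above. *Hspb1* was 4.24-fold (2.08 to 8.85) in CD8+ and 3.90-fold (1.87 to 8.13) in Treg cells, and *Cacybp*, which links a ubiquitin ligase to its targets, was 1.75-fold (1.28 to 2.38) in Treg cells. *Bag3*, a co-chaperone that routes HSP70 clients to autophagy, was 2.40-fold (1.17 to 4.96) in Tconv cells. No CCT subunit was higher past 1.5-fold in any class, and 1 was lower in CD8+ cells. Endoplasmic reticulum genes had 4 of 18 higher in CD8+, 1 in Treg and none in Tconv cells, where 1 was lower. Other mitochondrial chaperones had 1 of 9 higher and 1 lower in Treg, 3 of 7 lower in Tconv and none of 6 in CD8+ cells.

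The genes most alike to the trio were named by Pearson's correlation of log UMIs over thinned cells, among genes found in at least 3% of cells. *Hsp90aa1* was first of 4713 genes in CD8+ (r = 0.269, 1147 cells), of 5110 in Treg (r = 0.31, 2149 cells) and of 4908 in Tconv cells (r = 0.362, 1443 cells). The genes outside the 9 that followed included *Klf2* (0.254), *Klf6* (0.226), *Jun* (0.22) and *Fos* (0.195) in CD8+ cells. In Treg cells they included *Klf2* (0.212), *Hsp90ab1* (0.21), the constitutive HSP90, *Fos* (0.181) and *Jun* (0.169), and in Tconv cells *Klf2* (0.247), *Junb* (0.22), *Jund* (0.216) and *Fos* (0.21). These cells share 1 library, the values are weak in sparse counts, and they are given as an order only.

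Over all Treg cells, tagged and untagged, those with *Il1rl1*, the receptor of IL-33, had more of every member than those without it. The summed trio was 996 CPM (949 to 1046) against 718 CPM (698 to 739) in 504 and 2096 cells, 1.39-fold (1.31 to 1.47). *Hspa1b* was the only 1 of 9 members past 1.5-fold, at 1.55-fold (1.36 to 1.78), where 6.48% of all genes were higher and 10.3% lower, so the count was close to the background, and under a mitochondrial limit of 3% *Hspa1b* was 1.39 (1.20 to 1.61). *Hspa1a* was at 1.40-fold (1.29 to 1.51), *Dnajb1* at 1.29-fold (1.16 to 1.42) and *Hsp90aa1* at 1.31-fold (1.23 to 1.39). The lowest of the 9 was *Hspe1* at 1.12-fold (1.03 to 1.21), so each interval lay above 1. The median over members was 1.24, beside 0.993 over all genes. Of the other lists, 1 of 29 cytosolic chaperones was higher and 1 lower, 1 of 16 immediate early genes was higher and 1 lower, 1 of 8 regulators and 1 of 10 mitochondrial chaperones were lower, and none of 7 CCT subunits or of 18 endoplasmic reticulum genes was past the limit. Within cells with B16 tags the trio ratio was 1.63-fold (1.04 to 2.46) and within cells with B16–IL-33 tags 1.49-fold (1.13 to 1.95). Within the B16 tags 12 cells with *Il1rl1* stood against 232 without, and 7 of the 9 members, all but *Hspa1a* and *Hspa1b*, lay below 1, with the cytosolic set at 0.894-fold (0.727 to 1.09) and the mitochondrial pair at 0.786-fold (0.445 to 1.30). Within the B16–IL-33 tags all 9 lay above 1, with the cytosolic set at 1.58-fold (1.33 to 1.86) and the mitochondrial pair at 1.59-fold (1.07 to 2.32). The share of all genes on either side of 1 was not computed within the tags. A cell counts as having *Il1rl1* from 1 UMI, so deeper cells enter that group more easily, and its median depth was 2850 UMIs against 2770.

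Only few cells carried a hashtag, which limits every comparison of the tumors. Of 5620 cells of the 3 T cell classes, 602 had tags of 1 tumor only, 537 of them on exactly 1 tag UMI, and 5 kept cells of any class had tags of both. In Treg cells with these tags, the trio was 1563 CPM (1386 to 1756) in 55 B16–IL-33 cells (283 UMIs) and 310.2 CPM (275 to 348) in 244 B16 cells (289 UMIs), 5.04-fold (4.26 to 5.95). The 2299 Treg cells without a tag had 815 CPM (794 to 836), between the tagged groups. *Hspa1a* was 779 CPM (655 to 918) against 138 CPM (116 to 165), 5.62-fold (4.40 to 7.20). *Hspa1b* was 337 CPM (258 to 433) against 70.8 CPM (54.8 to 90.1), 4.75-fold (3.30 to 6.84). *Dnajb1* was 447 CPM (355 to 556) against 101 CPM (81.5 to 123), 4.43-fold (3.25 to 6.03). All 3 genes of the trio were thus over 4 times as high in the cells with the B16–IL-33 tags under the main settings. Under the alternatives given at the end the ratios ranged from 3.42 to 11.6 for *Hspa1a*. They ranged from 2.3 to 7.42 for *Hspa1b* and from 3.01 to 10.2 for *Dnajb1*. The counting intervals did not overlap, but they leave out the spread between cells.

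The cytosolic set and the mitochondrial pair were higher by less. *Hsp90aa1* was 1193 CPM (1039 to 1363) against 408 CPM (368 to 451), 2.92-fold (2.46 to 3.46), and *Hsph1* was 160.1 CPM (107 to 229.96) against 48.3 CPM (35.2 to 64.6), 3.31-fold (2.0 to 5.40). *Dnaja1* was 1.99-fold (1.55 to 2.54) and *Hspa8* 1.36-fold (1.21 to 1.53), the smallest ratio of the 9. *Hspd1* was 259.5 CPM (191 to 345) against 94.5 CPM (75.8 to 116), 2.75-fold (1.89 to 3.96), and *Hspe1* 508 CPM (409 to 623) against 298 CPM (264 to 336), 1.70-fold (1.33 to 2.16). The mitochondrial pair rested on the tags numbered 2, since with the tags numbered 1 alone its ratio was 0.869 (0.507 to 1.41) in place of 1.95-fold (1.60 to 2.38). In all, 8 of 9 members were past 1.5-fold higher and none lower, where 14.7% of all genes were higher and 19.1% lower, and the median over members was 2.92, beside 0.971 over all genes. With the tags numbered 1 alone (18 and 79 cells) 4 of 9 were past the limit, the genes of the trio and *Dnaja1*, *Hspd1* was lower past it at 0.641 (0.124 to 2.08), and *Hsp90aa1* was 1.24 (0.817 to 1.82) and *Hsph1* 1.44 (0.351 to 4.47). The share of all genes past the limit was not computed for those tags alone, so that count has no background beside it.

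The cells with B16–IL-33 tags differed in the number of positive cells and in their level. After thinning, at least 1 trio UMI was found in 25 of 46 cells, 54.3% (39.0 to 69.1), with B16–IL-33 tags and in 56 of 216 cells, 25.9% (20.2 to 32.3), with B16 tags, beside 69.1% and 44.3% before thinning. At least 3 trio UMIs were found in 13 of 46 cells, 28.3% (16 to 43.5), and in 16 of 216 cells, 7.41% (4.29 to 11.8). The level of the trio in single cells, from the lowest over the median to the highest, was 0, 423 and 7073 CPM with B16–IL-33 tags and 0, 0 and 2968 CPM with B16 tags. The groups of cells overlapped widely. The 3 highest cells held 119 of 283 trio UMIs with B16–IL-33 tags and 47 of 289 with B16 tags, and without them the ratio was 3.90 (3.18 to 4.78).

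**Figure D5:**
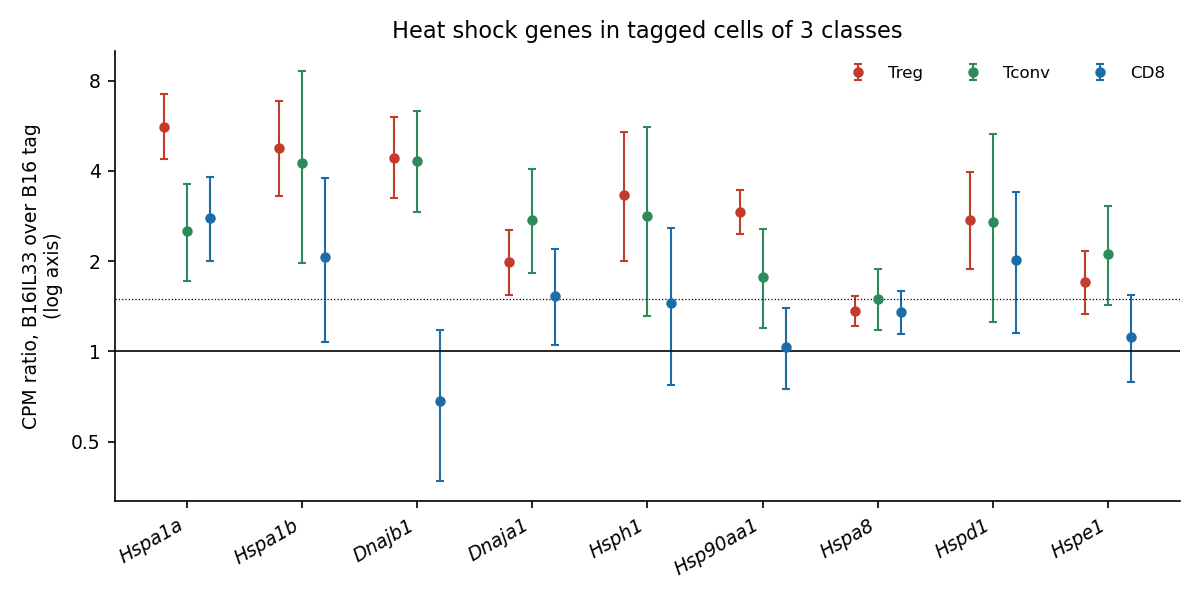
Ratio of the level of each member in cells with B16–IL-33 tags to that in cells with B16 tags (log axis), for Treg, Tconv and CD8+ cells, with bars for the exact 95% counting interval, a line at 1 and a dotted line at 1.5. In Treg cells 8 of 9 members lie past 1.5-fold (4 of 9 with the tags numbered 1 alone), led by Hspa1a (5.62). In CD8+ cells Dnajb1 lies below 1 (0.686), with an interval that includes 1.

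Other measures also differed between the tags. The 9 myeloid markers summed to 1104 CPM in Treg cells with B16–IL-33 tags (7 of 9 genes with a UMI) and to 847 with B16 tags (9 of 9), against 251 in Treg cells without a tag, and by tag number they ranged from 0 in B16IL33_1 (0 of 9 genes) to 1793 CPM in B16_1 cells. Without the cells with at least 3 myeloid UMIs the trio ratio was 3.96 (3.26 to 4.79). The median depth was 2467 UMIs with B16–IL-33 and 3373 with B16 tags, and within cells of 1000 to 2000 detected genes the ratio was 3.63 (2.85 to 4.62). By tag, the trio read 342 CPM in 79 B16_1 and 282 in 160 B16_2 cells, 0.823-fold (0.639 to 1.07) between them, and 1095 in 18 B16IL33_1 and 1742 in 37 B16IL33_2 cells, 1.59-fold (1.18 to 2.18). Both B16–IL-33 tags thus stood above both B16 tags. *Il1rl1* was found in 13 of 55 cells, 23.6% (13.2 to 37.0), with B16–IL-33 tags and in 12 of 244, 4.92% (2.57 to 8.43), with B16 tags. The trio ratio between the tags was 4.35-fold (2.74 to 7.14) among Treg cells with *Il1rl1* and 4.75-fold (3.94 to 5.72) among those without, with overlapping intervals. Tag and tumor batch cannot be told apart in 1 pool, and the part of differing handling of the tumors was not tested.

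The same comparison in the other classes rests on still fewer cells. In Tconv cells with B16–IL-33 and B16 tags (17 and 164 cells) the trio was 2026 CPM (1629 to 2491) against 611 CPM (541 to 687), 3.32-fold (2.59 to 4.22). *Hspa1b* (4.26-fold, 1.98 to 8.60) and *Dnajb1* (4.33-fold, 2.92 to 6.33) led, *Hspa1a* was 2.52-fold (1.72 to 3.61), and *Hspa8* was just short of the limit, at 1.5-fold (1.18 to 1.88) after rounding. There 8 of 9 members were past 1.5-fold higher and none lower, against 18.1% of genes higher and 29.5% lower. In CD8+ cells (19 and 103 cells) the trio was 1116 CPM (902 to 1366) against 621 CPM (547 to 702), 1.80-fold (1.40 to 2.29). *Hspa1a* (2.78-fold, 2.01 to 3.82), *Hspa1b* (2.06-fold, 1.07 to 3.79), *Hspd1* (2.02-fold, 1.15 to 3.41) and *Dnaja1* (1.53-fold, 1.05 to 2.19) were past 1.5-fold, 4 of 9, against 15.7% of genes higher and 20.3% lower. *Dnajb1*, with 15 UMIs in the CD8+ cells with B16–IL-33 tags, was at 0.686-fold (0.371 to 1.18) and *Hsp90aa1* at 1.03-fold (0.752 to 1.40). Both intervals include 1. Whether the inducible genes differ from each other in CD8+ cells was not tested. Over the 3 classes together (91 and 511 cells) the trio was 3.29-fold (2.93 to 3.70). In the 2 smaller groups the 3 highest cells held 56 of 90 trio UMIs of Tconv and 60 of 94 of CD8+ cells with B16–IL-33 tags, and without the 3 highest cells of each tag group the trio ratio was 1.71 (1.15 to 2.45) in Tconv and 1.05 (0.705 to 1.51) in CD8+ cells. Of the immediate early genes, 3 of 13 were higher and 3 lower in Tconv cells with B16–IL-33 tags, and 2 of 15 were higher and 7 lower in such CD8+ cells, with *Fos* at 0.417-fold (0.229 to 0.707). Whether the ratios differ between classes was not tested.

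Between the tags the other lists of Treg cells had smaller shares past 1.5-fold than the members. Of all genes 14.7% were higher and 19.1% lower. Of 18 endoplasmic reticulum genes 5 were higher and 1 lower, with *Herpud1*, which serves the degradation of misfolded proteins, at 2.41-fold (1.21 to 4.58) and *Hspa5*, the HSP70 of that compartment, at 1.55-fold (1.21 to 1.98). Of 16 immediate early genes 4 were higher and 1 lower, with *Btg2* at 1.96-fold (1.43 to 2.66), *Nr4a1* at 1.95-fold (1.35 to 2.78) and *Fos* at 1.34-fold (1.11 to 1.61). Of 23 other cytosolic chaperones 3 were higher and 1 lower, of 5 regulators 1 was higher, none of 7 CCT subunits was past the limit, and of 7 other mitochondrial chaperones 4 were lower and none higher. The median ratio of the immediate early genes was 1.30 and that of the other cytosolic chaperones 1.19.

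The level of the members varied with depth, mitochondrial share and cell state. In Treg cells the trio read 1208, 787, 686 and 587 CPM in cells with 500 to 1000, 1000 to 1500, 1500 to 2000 and 2000 to 2500 detected genes, and in CD8+ and Tconv cells it went from 1302 to 585 and from 1512 to 745 CPM over the same bins. Cells with fewer genes thus had more of it in each class, and within each of these bins Tconv cells stood above Treg cells. T cells above 2500 genes had 469 CPM (454 to 484) of the trio and 1109 CPM (1086 to 1132) of the mitochondrial pair. Across T cells with 0 to 1% and 4 to 5% mitochondrial UMIs the trio read 736 CPM (692 to 782) and 1144 CPM (1069 to 1223). The median mitochondrial share was 2.41% in CD8+, 1.81% in Treg and 2.36% in Tconv cells. Cells with a UMI of a cycling gene had 0.788-fold (0.733 to 0.846) of the trio of other CD8+ cells, 0.967-fold (0.912 to 1.02) in Treg and 0.885-fold (0.825 to 0.948) in Tconv cells, with *Dnajb1* at 0.657-fold (0.581 to 0.741) in CD8+ cells. Cycling genes are easier to find in deeper cells, and the part of depth in this difference was not tested.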

How the data were processed

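Per the labels and the file header, the authors deposited UMI counts per gene and barcode from Cell Ranger for 5′ gene expression, and counts per hashtag and barcode; the header names version 3.1.0, and the submitters' processing notes list Cell Ranger 6.1.1 and mm10. The reference also held human genes, which took 0.0197% of the UMIs and were left out. The members and lists were chosen with earlier results of these data known, as were the class rules.

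Cells with 200 to 2500 genes and under 5% of UMIs on 13 mitochondrial genes were kept, the limits stated for the study. UMIs were summed per class and divided by the summed total (CPM), with exact Poisson intervals, and ratios have exact conditional binomial intervals. Shares have exact Clopper-Pearson intervals. Thinning used seed 1. Tags counted from 1 UMI where all tag UMIs named 1 tumor. All 9 members are named. Of the lists fixed beside them (other cytosolic chaperones, regulators, CCT subunits, other mitochondrial chaperones, endoplasmic reticulum genes, immediate early genes), genes with the largest ratios or the most UMIs are named. The hashtag and expression libraries share 11756 barcodes and 8946 kept cells. Python 3.11.15, NumPy 2.4.6, SciPy 1.17.1, pandas 2.3.3 and Matplotlib 3.10.9 were used, and the steps were tested on simulated data. TCR tables served only to count beta chains. A few genes and the results that need them are not reported here.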

Additional observations from a re-analysis of the deposited data

How the results depend on the processing

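No paired analysis was possible because the pool is 1 sample and the tag numbers do not say what cells with the same number share. Of 414 single-gene ratios recomputed under the alternatives, 403 stayed on the same side of 1, and of 234 recomputed values of sets, spread and co-detection, 196 stayed within the counting interval of the value reported. The cause of the other changes was not tested. Without an upper limit on detected genes, ratios to Treg cells that crossed 1 were those of the trio, the mitochondrial pair and single members: the trio became 0.890 in CD8+ (reported 1.08) and 0.809 in myeloid cells (1.27), the mitochondrial pair 0.999 in myeloid cells (1.08), *Hsp90aa1* 1.02 in Tconv cells (0.953), and *Hspa1b* 0.862 in CD8+ (1.04) and 0.706 in myeloid cells (1.19). *Hspa1a* in myeloid cells fell from 1.88 to 1.14. The same setting moved the cytosolic set to 0.945 in Tconv and 0.879 in myeloid cells, and the mitochondrial pair to 1.22 in Tconv cells and to 1.06 for Treg cells with over without *Il1rl1*. Between the tags in Treg cells it gave 3.78 for the trio, 1.53 for the cytosolic set and 1.31 for the mitochondrial pair (reported 5.04, 1.76 and 1.95). With the tags numbered 1 alone these were 3.20, 1.31 and 0.869, with *Hspd1* at 0.641 and *Hspe1* at 0.932, with the tags numbered 2 alone 6.19, 1.95 and 2.46, and with at least 2 tag UMIs 8.53, 2.51 and 4.06. Alternatives chosen after seeing the data gave a trio ratio of 3.90 without the 3 highest cells of each tag group, 3.63 in cells with 1000 to 2000 genes and 3.96 without cells with at least 3 myeloid UMIs. As a mean over cells the trio was 4.02 between the tags and 1.39 in myeloid cells, the cytosolic set 0.954 in CD8+ cells and the mitochondrial pair 1.07 by *Il1rl1*. After thinning to 1500 UMIs the trio was 3.51 between the tags, 1.14 in CD8+ and 1.55 in myeloid cells, the cytosolic set 0.894 in Tconv cells and 1.25 by *Il1rl1*, and the mitochondrial pair 1.06 by *Il1rl1*. A mitochondrial limit of 3% gave 0.995 for the cytosolic set in CD8+ cells. The highest 10% of cells held 57.7% of the trio UMIs in CD8+ and 62.3% in Treg cells at 1000 UMIs, and 56.8% in Treg and 51.6% in Tconv cells at 3000. Co-detection in Treg cells moved to 2.15 for *Hspa1a* and *Hspa1b* at 3000 UMIs and to 1.17 for *Hspd1* and *Hspe1* in cells with a CD3 UMI. With under 60 tagged cells in each B16–IL-33 group, cells and not reads limit the comparison of the tumors.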
